A study of Homo sapiens with 4 samples.

Results

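The genes described here were 9 members of the HLA class I antigen presentation pathway: B2M, HLA-B, HLA-C, HLA-E, HLA-F, TAP1, TAP2, PSMB8 and PSMB9. They were set by name, with earlier results of these data known, and every probe whose RefSeq accession belonged to one of them was used. This gave 12 probes of 34127 on the array, and 9 genes of the 19480 that could be named. Of the 12 probes, 10 stood well above background on all 4 arrays, 1 probe of PSMB8 did so on 1 array, and 1 of the 2 probes of TAP2 on none.

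Class I molecules show the immune system what a cell is making. The immunoproteasome subunits PSMB8 and PSMB9 cut cytosolic proteins into peptides, the transporter TAP1-TAP2 moves the peptides into the endoplasmic reticulum, and there they are loaded on a heavy chain (classical ones such as HLA-B and HLA-C, or the less variable HLA-E, HLA-F and HLA-G) paired with the light chain beta-2 microglobulin, encoded by B2M. Interferon, NFκB and the regulator NLRC5 are known to drive these genes, and tumour cells often carry little of their products. LNCaP, the parent of both lines here, is an androgen-responsive line from a metastasis of human prostate cancer.

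TR9_MeTA14 and TR15_MeTA5 are stably transfected LNCaP-derived lines, each built on its own Tet repressor line (TR9 or TR15) and each the only one of its kind profiled. Both carry the repressor and a FLAG-tagged construct from which tetracycline induces NFκB (AD)-MBD, a methyl-CpG binding domain joined to the NFκB activation domain, meant to switch on genes with methylated promoters. Each line was profiled untreated (-Tet) and after 4 days of tetracycline (+Tet) on 1-colour Agilent arrays, 1 array per condition and 4 in all. Both -Tet groups thus carried the construct as well. Where 4 signals are given below, they run in the order TR9_MeTA14 without and with tetracycline, then TR15_MeTA5 without and with it. Parental cells given tetracycline were not analysed here, so an action of tetracycline itself cannot be told apart from that of the construct. In bulk RNA, fewer cells with a transcript and less transcript per cell cannot be told apart either.

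Between 20552 and 24206 probes per array were well above background. Of 6 luminal prostate markers, including KLK3, 6 were well above background on all 4 arrays, and 3 of 3 basal markers were so on none. The summed signal of the luminal markers, divided by each array's 75th percentile, went from 437 to 168 with tetracycline in TR9_MeTA14 and from 604 to 381 in TR15_MeTA5. Of these markers, 3 of 6 were at least 2-fold lower in TR9_MeTA14 (15.1% of all genes) and 0 in TR15_MeTA5 (2.21%). Of 4 leukocyte markers with a probe, CD14 passed 2-fold upwards in both lines after tetracycline (9.62-fold and 4.77-fold) and CD3E was at least 2.55-fold lower in TR15_MeTA5. The scaled sum went from 0.333 to 1.33 and from 0.569 to 0.939. On its brightest probe, PTPRC, the pan-leukocyte marker, had signals of 97.2, 144.9, 109 and 105 on the 4 arrays. These are log2 changes of 0.25 in TR9_MeTA14 and -0.62 in TR15_MeTA5. Its other probes were not well above background on any array, except A_33_P3309526 in TR9_MeTA14 +Tet (signal 30.4). The part of either shift in the class I values was not tested.

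Every comparison below is a difference of log2 processed signals, each array scaled to its own 75th percentile, so raw signals are printed beside it and the change need not equal their plain ratio. That percentile was 1.26 times higher with tetracycline in TR9_MeTA14 and 1.48 times higher in TR15_MeTA5. The technical SD of such a log2 difference was 0.0873. It comes from the spread between spots within an array, for probes spotted 10 times and well above background. It thus leaves out labelling, hybridisation and differences between arrays, and probes printed once have no estimate of their own. A change within or beyond it speaks of spot precision only, and there is no replicate culture. A call is a change of at least 2-fold, the cut-off of the study's methods.

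In TR9_MeTA14, TAP1 and TAP2 were at least 2-fold lower with tetracycline, and most other class I probes lay below 0 by less. The 10 probes measured on all 4 arrays changed by a median of -0.72 on the log2 scale, from -3.10 (TAP2) to -0.05 (HLA-F). The median over all 19298 such probes was -0.15, with quartiles of -0.68 and 0.38. In TR15_MeTA5 the same 10 probes had a median of -0.06, from -0.54 to 0.56, against -0.19 over all probes. TAP2 differed most between the lines and the immunoproteasome subunit PSMB9 least. Scaled levels of the 12 probes on the 4 arrays are plotted first.

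**Figure D1:**
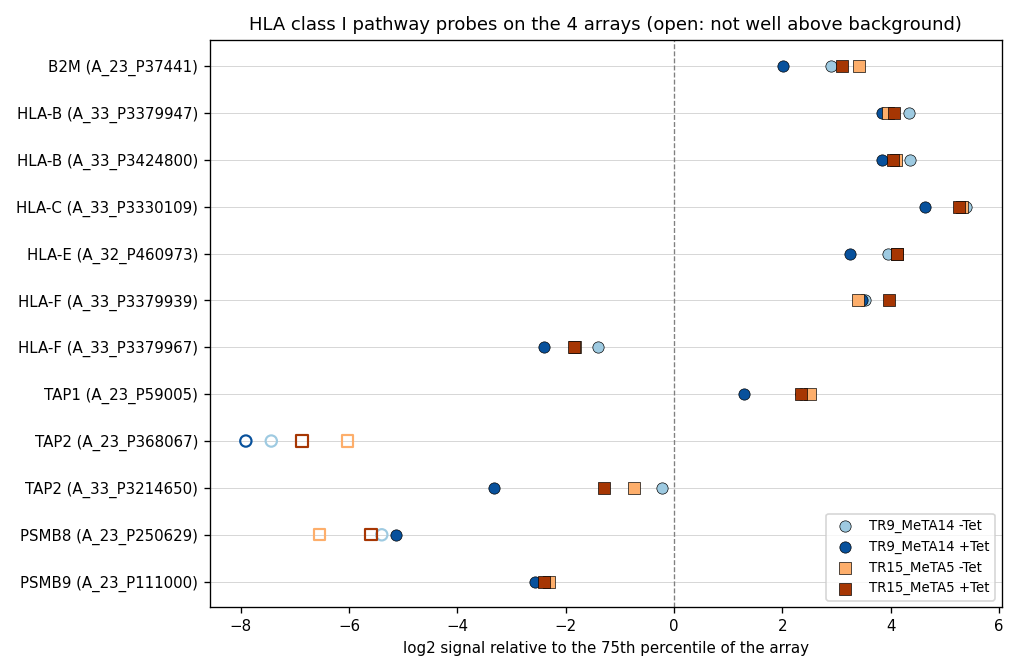
Scaled log2 level (log2 processed signal minus the array's 75th percentile) of each class I probe on the 4 arrays, with open points for arrays on which the probe was not well above background. The transporter probe A_33_P3214650 of TAP2 drops from -0.22 to -3.32 with tetracycline in TR9_MeTA14, while levels of one probe cannot be set against those of another.

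The light chain gene B2M was read by 1 probe printed in 10 spots, which makes it the most precisely measured member. Its processed signals were 4582 and 3134 in TR9_MeTA14 cells without and with tetracycline, and 3891 and 4623 in the TR15_MeTA5 pair. Before scaling, the 10 spots ran from 4207 to 4893 without and from 2868 to 3317 with tetracycline in TR9_MeTA14. In TR15_MeTA5 they ran from 3627 to 4240 and from 4292 to 4851, higher with tetracycline. Spots overlapped in neither line, but they repeat 1 array of 1 culture and show spot precision only. After scaling, B2M was 1.84-fold lower with tetracycline in TR9_MeTA14 (log2 -0.88) and 1.24-fold lower in TR15_MeTA5 (log2 -0.32). Both differences exceeded the technical SD, and neither reached 2-fold.

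In order, scaled log2 levels of B2M were highest in untreated TR15_MeTA5 (3.41), then treated TR15_MeTA5 (3.09), untreated TR9_MeTA14 (2.89) and treated TR9_MeTA14 (2.01). The neighbours in the middle lay 0.20 apart, the closest step of the order. With spike-in scaling the untreated lines changed places, TR15_MeTA5 lying at -0.52 against TR9_MeTA14. B2M was also the internal control of the study's RT-PCR. The sign in TR15_MeTA5 depended on the scaling, and the B2M change there was 0.05 when arrays were scaled to spike-in probes, and -0.21 under quantile normalization. In TR9_MeTA14 the same settings left B2M lower with tetracycline.

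The B2M promoter is shown because its interferon and NFκB elements are textbook features of class I control. Promoter sequences here come from RefSeq on GRCh38.p14 and hold the 250 bases before the start of the gene, 5′ to 3′ on the gene's strand. Capitals mark matches on either strand to GGGNNTTCC, a short form of the NFκB site, or to GAAANNGAA, the core of the interferon-stimulated response element (ISRE). The short form leaves out longer NFκB sites. It does not match gggaaagtccc in the B2M window or gggactttcc in the TAP1 window, so no match does not mean no site. The ISRE core is an exact form as well and leaves out variant sites, so the same holds for it. The B2M window lies at chr15:44711267-44711516 on the plus strand. It held 18 CpG and 2 overlapping ISRE matches, which begin 144 and 138 bases before the start.
B2M: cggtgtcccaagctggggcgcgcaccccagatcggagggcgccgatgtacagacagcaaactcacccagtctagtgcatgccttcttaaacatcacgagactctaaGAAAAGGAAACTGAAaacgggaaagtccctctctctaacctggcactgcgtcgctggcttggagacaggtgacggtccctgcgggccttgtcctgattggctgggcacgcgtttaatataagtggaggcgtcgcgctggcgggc

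The 4 heavy chain genes were measured by 6 probes, and 6 of 6 changed by less than 2-fold in both lines. HLA-C, a classical heavy chain, had signals of 25741, 19319.8, 14640.3 and 20802. It was 1.68-fold lower with tetracycline in TR9_MeTA14 (log2 -0.74) and lay at log2 -0.06 in TR15_MeTA5, within the technical SD. HLA-E, whose product presents leader peptides of other class I chains to natural killer cells, followed the same course. Its signals were 9565, 7377, 6333 and 9458, with log2 changes of -0.71 in TR9_MeTA14 and 0.01 in TR15_MeTA5.

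HLA-B, the other classical heavy chain among the members, had 2 probes. On A_33_P3379947 the signals were 12443, 11106, 5676 and 9031, and on A_33_P3424800 they were 12601, 11117, 6260 and 8873. In TR9_MeTA14 the 2 probes gave log2 changes of -0.49 and -0.51, and in TR15_MeTA5 0.11 and -0.06. Both probes thus put HLA-B lower with tetracycline in TR9_MeTA14 by more than the technical SD, and their signs differed in TR15_MeTA5. With spike-in scaling the second probe lay at 0.30 in TR15_MeTA5.

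HLA-F, a nonclassical heavy chain gene, was the member with the highest change in TR15_MeTA5, and its 2 probes disagreed. A_33_P3379939, the brighter, had signals of 7091, 8595, 3883 and 8465, or log2 changes of -0.05 in TR9_MeTA14 and 0.56 (1.47-fold higher) in TR15_MeTA5. A_33_P3379967, which reads another RefSeq transcript of HLA-F, had signals of 233, 147, 103 and 150.3. It was 1.99-fold lower in TR9_MeTA14 (log2 -0.99), just short of a call (-1.05 with quantile normalization, which is one), and lay at -0.02 in TR15_MeTA5. HLA genes are close relatives, and how far a probe of one binds transcripts of another cannot be read from these data.

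The HLA-B and HLA-C promoters are set side by side because both belong to classical heavy chains and 1 of them held the searched NFκB letters. HLA-B lies at chr6:31357180-31357429 and HLA-C at chr6:31272093-31272342, both on the minus strand, with 17 and 15 CpG. In HLA-B the match begins 177 bases before the start. The HLA-F window held no match to the short NFκB form and 1 ISRE match, 155 bases before its start.
HLA-B: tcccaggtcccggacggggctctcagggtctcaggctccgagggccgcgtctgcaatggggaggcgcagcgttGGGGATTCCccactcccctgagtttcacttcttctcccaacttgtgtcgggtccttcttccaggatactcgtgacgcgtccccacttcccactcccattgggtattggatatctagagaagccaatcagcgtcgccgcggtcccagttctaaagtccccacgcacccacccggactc
HLA-C: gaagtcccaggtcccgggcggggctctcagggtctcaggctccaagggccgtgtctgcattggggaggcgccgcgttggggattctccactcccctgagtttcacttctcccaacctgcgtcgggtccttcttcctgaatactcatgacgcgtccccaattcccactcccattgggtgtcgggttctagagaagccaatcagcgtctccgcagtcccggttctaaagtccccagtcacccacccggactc

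The peptide transporter was the lowest of the groups with tetracycline in TR9_MeTA14, and TAP1 and TAP2, the partners of this heterodimer, were the only members called there. TAP2 probe A_33_P3214650 had signals of 528 in TR9_MeTA14 -Tet and 77.6 in TR9_MeTA14 +Tet, an 8.56-fold lower level (log2 -3.10). In TR15_MeTA5 its signals were 218 and 222, which after scaling is 1.46-fold lower (log2 -0.54). The tetracycline-treated TR9_MeTA14 array was low on its own, and the other 3 arrays lay between 218 and 528. With normexp background correction and quantile normalization the TR9_MeTA14 change was -2.01.

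TAP1 had signals of 3138, 1889.6, 2091 and 2765. It was 2.09-fold lower with tetracycline in TR9_MeTA14 (log2 -1.06) and lay at log2 -0.16 in TR15_MeTA5. Its TR9_MeTA14 change fell just outside the cut-off with spike-in scaling, at -0.95. The other TAP2 probe, A_23_P368067 for a different RefSeq transcript, had signals of 3.57, 3.24, 5.63 and 4.64 and was not well above background on any array, so it gives no change.

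TAP2, PSMB8, TAP1 and PSMB9 are neighbours in the class II region of chromosome 6, and TAP1 and PSMB9 start beside each other on opposite strands, so that their windows overlap. TAP1 is shown at chr6:32853705-32853954, the upstream of its 2 RefSeq starts, and TAP2 at chr6:32838740-32838989, both on the minus strand. They held 16 and 19 CpG. ISRE matches begin 133 and 127 bases before the start in TAP1 and 58 bases before it in TAP2.
TAP1: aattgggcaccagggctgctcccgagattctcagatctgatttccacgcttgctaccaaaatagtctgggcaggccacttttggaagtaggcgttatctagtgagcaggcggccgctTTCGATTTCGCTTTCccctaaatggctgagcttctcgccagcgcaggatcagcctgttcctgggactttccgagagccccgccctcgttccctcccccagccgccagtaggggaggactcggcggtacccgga
TAP2: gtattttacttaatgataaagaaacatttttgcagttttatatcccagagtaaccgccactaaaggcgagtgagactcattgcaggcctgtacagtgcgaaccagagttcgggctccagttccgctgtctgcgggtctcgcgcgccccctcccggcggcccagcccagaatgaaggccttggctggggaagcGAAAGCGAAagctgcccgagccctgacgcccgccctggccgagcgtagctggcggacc

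The immunoproteasome subunits were dim. PSMB9 had signals of 117, 130.3, 74.3 and 102, with log2 changes of -0.18 and -0.11. Its changes in the 2 lines differed by 0.07, less than the technical SD. With spike-in scaling they were -0.07 and 0.26, which is 0.32 apart. PSMB8 had signals of 14.7, 22.2, 3.92 and 11.2 and stood well above background only in TR9_MeTA14 +Tet. It was at least 1.14-fold higher there than in untreated TR9_MeTA14, taken against the lowest signal well above background on the untreated array (15.5), and has no change in TR15_MeTA5.

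Across the 8 members with a RefSeq window (HLA-E had none), matches to the short NFκB form were found in HLA-B and PSMB8. Of all 35116 windows, 5.78% held one, and longer NFκB sites were not searched. ISRE matches were found in 4 of 8 members (B2M, HLA-F, TAP1 and TAP2) against 6.88% of all windows. Variant ISRE sites were not searched, so HLA-B, HLA-C and the others without a match are not shown to lack one. TGACG, the core of the cyclic AMP response element, was found in 6 of 8 against 21.2%, and CCAAT in 6 of 8 against 32.0%. The CCAAT matches of TAP1 and PSMB9 are the same bases, counted for both genes because their windows overlap. CpG counts of the 5 windows printed here ran from 15 to 19, between the median (11) and the upper quartile (23) of all windows. The members' matches lay in 2, 4, 6 and 6 of their 10 windows in turn, since TAP1 and PSMB8 have 2 windows each and the shares of all windows are per window. These matches are descriptions of the letters. Methylation of these promoters was not analysed here.

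Few class I probes passed the 2-fold cut-off, and each count is set beside the share of the whole array. In TR9_MeTA14, 2 of 11 probes compared were at least 2-fold lower with tetracycline (15.1% of all 24243 compared) and 0 of 11 were 2-fold higher (15.2%). In TR15_MeTA5, 0 of 10 were 2-fold lower (2.67% of all 22337) and 0 of 10 higher (8.5%). By gene and brightest probe, 2 of 9 members were 2-fold lower in TR9_MeTA14 (15.1% of all genes) and 0 higher (16.8%), and in TR15_MeTA5 0 of 8 were lower (2.21%) and 0 higher (9.77%). The members' shift in TR9_MeTA14 was made of many changes under 2-fold: 10 of 10 probes were below 0, against 58.1% of all probes, and 9 of 10 lay below the all-probe median. With median or spike-in scaling 9 of 10 were below 0. The exception was HLA-F probe A_33_P3379939, at -0.05 as reported and within the technical SD.

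Changes of all 10 probes were higher in TR15_MeTA5 than in TR9_MeTA14, against 49.4% of all 19298 probes. Among probes below 0 in TR9_MeTA14, which these 10 all were, the share was 76.7%. The difference (TR15_MeTA5 change minus TR9_MeTA14 change) had a median of 0.65 over the members, from 0.07 (PSMB9) to 2.56 (TAP2), and of -0.01 over all probes. It stayed above 0 for 10 of 10 probes under each scaling tried. With 4 arrays this difference between the lines could not be tested.

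**Figure D2:**
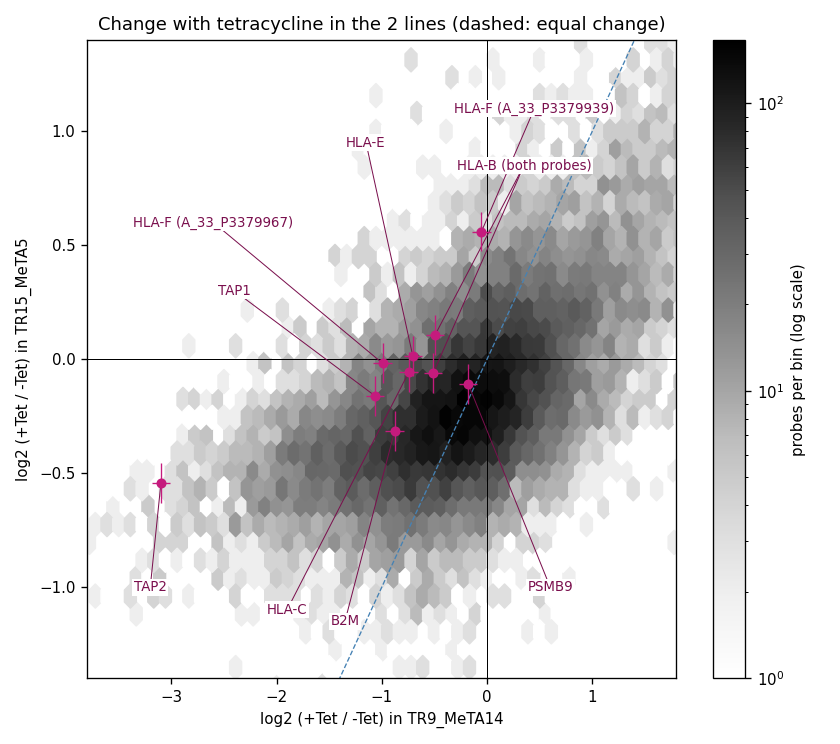
Log2 change with tetracycline in TR9_MeTA14 (horizontal) against TR15_MeTA5 (vertical): grey hexagons count all probes measured on all 4 arrays within the axes, points are the 10 class I probes, bars are 1 technical SD, and the dashed line marks equal change. All 10 class I points lie above the dashed line, TAP2 farthest from it (-3.10 and -0.54) and PSMB9 nearest (-0.18 and -0.11).

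Testing both lines together, limma with cell line as a block and Benjamini-Hochberg adjustment called 0 of 10 member probes, higher or lower, and 0 of 10 at an unadjusted p below 0.05. Of all 22808 probes tested it called 2.53% higher and 0.00877% lower, and 4409 had an unadjusted p below 0.05. The lowest adjusted p among members was 0.260 for TAP2 (log2 -1.82, SE 0.68), followed by 0.313 for B2M (log2 -0.60, SE 0.28), each lower with tetracycline in 2 of 2 lines. The highest was 0.794 for PSMB9 (log2 -0.14, SE 0.28). This fit has 1 residual degree of freedom, so a call needed an effect common to both lines and large against its SE. It recovered 0% of 4-fold changes in simulated data with 50 probes changed at each fold size. Fewer probes were changed there than were called here. That makes the adjustment stricter, so the simulation does not fix the smallest effect that could be called in these data.

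No member probe was 2-fold apart between the untreated lines. In TR15_MeTA5, 0 of 10 were 2-fold higher (8.44% of all 21645 probes) and 0 of 10 lower (5.49%). With shares this low, 10 probes are too few to set the members apart from the array. By sign alone, 6 of 10 were lower in TR15_MeTA5, against 40.7% of all probes. TR15_MeTA5 had 1.43-fold more B2M (log2 0.52) and 1.44-fold less TAP2 (log2 -0.52), the ends of the range. This comparison leaned on the scaling: with spike-in scaling the median of all probes was -0.90 and that of the members -1.12, and 6 of 10 probes were 2-fold apart.

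After tetracycline, 3 of 10 probes were at least 2-fold higher in TR15_MeTA5 than in TR9_MeTA14 (14.2% of all 22979): TAP2 (4.09-fold), B2M (2.11-fold) and TAP1 (2.09-fold). None of 10 was 2-fold lower (10.1%). The members' log2 differences had a median of 0.59, from 0.17 to 2.03, and that of all probes was 0.10. In alternatives chosen after seeing the data, the count of 3 fell to 1 (TAP2) with spike-in scaling, where B2M lay at 0.29 and TAP1 at 0.28, and to 1 with normexp. Over both treatments, limma called 0 member probes and 0.0% of all 22808 between the lines. At an unadjusted p below 0.05 there were 3632 probes, of which B2M was the single member (log2 0.80, SE 0.28, adjusted p = 0.309). With spike-in scaling, also run on this value after seeing the data, it turned to -0.11 (limma adjusted p = 0.802).

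Where scaling shifted all probes, the members shifted with them. The median change of all probes in TR15_MeTA5 was -0.19, and with spike-in scaling it was 0.18. Relative to the all-probe median, members stood -0.57 lower in TR9_MeTA14 (-0.47 with quantile normalization, -0.51 with normexp) and 0.13 higher in TR15_MeTA5 (0.20 and 0.16). Below the all-probe median lay 9 of 10 member probes in TR9_MeTA14, and 2 of 10 in TR15_MeTA5 (3 with quantile normalization or normexp). The other scalings subtract 1 constant per array and cannot alter these positions. The plot of median changes by scaling shows both lines.

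**Figure D3:**
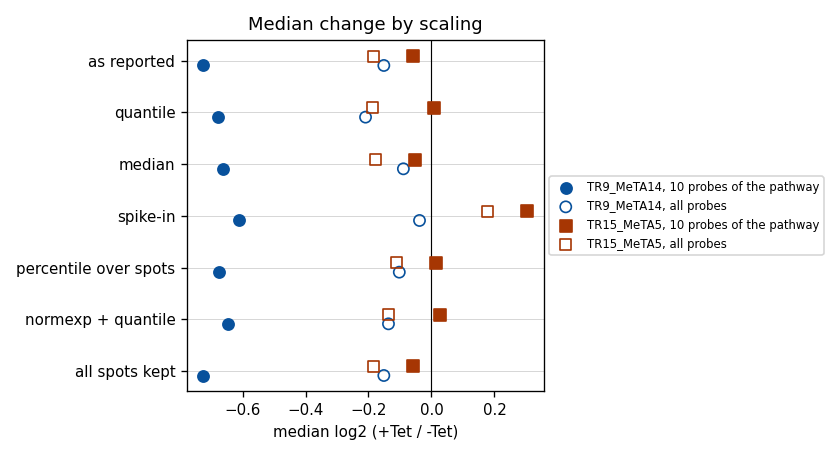
Median log2 change with tetracycline of the 10 class I probes (filled) and of all probes (open) in TR9_MeTA14 (circles) and TR15_MeTA5 (squares) under each processing of the arrays. The class I median lies left of the all-probe median in TR9_MeTA14 in each row and right of it in TR15_MeTA5, where its sign moves with the setting.

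By likeness of profile over the 4 arrays, the genes nearest to B2M among 12694 were RBM28, GLO1, EIF4G1, SURF1 and MIX23, at Euclidean distances of 0.0435 to 0.0620 between centred log2 profiles. TAP1 was the nearest member, at rank 267 and a distance of 0.248, and HLA-E stood at rank 775. HLA-C was at rank 1841, PSMB9 at 4334, HLA-B at 4711, HLA-F at 6105 and TAP2 at 9541. Profiles over 4 arrays are short, and likeness here is a description.

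The other heavy chain genes with a probe well above background were HLA-G and HLA-J. HLA-G, the nonclassical chain of the placenta, had signals of 36685, 36563, 22238 and 36522 and changed by -0.34 and 0.15. HLA-J, a pseudogene, had signals of 8922, 8294, 4271 and 7892 and changed by -0.44 and 0.32. Here too, how far these probes bind transcripts of other HLA genes cannot be read from these data. By brightest probe, 0 of these 2 genes were called in either line.

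Genes that act beside the members mostly changed by less than 2-fold. Of 11 peptide loading and trimming genes, 2 were at least 2-fold higher and 2 lower in TR9_MeTA14, and 1 of 10 compared was higher in TR15_MeTA5. These counts lie near the shares of all genes (16.8% higher and 15.1% lower in TR9_MeTA14, 9.77% higher in TR15_MeTA5). Named after their values were seen, the lower genes were the peptidases ERAP2 (log2 -1.06) and LNPEP (-1.12), and THOP1 was higher beside HSPA5 (1.41). HSPA5, an endoplasmic reticulum chaperone, was the gene higher in both, 2.66-fold and 2.78-fold (limma adjusted p = 0.0834). Tapasin (TAPBP), which bridges TAP and heavy chain, changed by 0.32 and -0.01, and the trimming peptidase ERAP1 by 0.31 and -0.11. Of 8 proteasome partners, 0 were called in either line. The third immunosubunit PSMB10 changed by -0.23 and -0.35, and the constitutive subunits PSMB5, PSMB6 and PSMB7 by 0.12, 0.49 and 0.17 in TR9_MeTA14 and by -0.31, -0.07 and -0.19 in TR15_MeTA5.

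Interferon signalling genes and class I regulators included several called higher in both lines. Of these 22 genes, 6 of 21 compared were at least 2-fold higher and 4 lower in TR9_MeTA14, and 5 of 19 were higher and 0 lower in TR15_MeTA5. The shares of all genes were 16.8% and 15.1% in TR9_MeTA14 and 9.77% and 2.21% in TR15_MeTA5. IRF7, IRF9 and SOCS1 passed 2-fold upwards in each line, and RELA did so by its brightest probe only. The RFX complex binds the promoters of class I and class II genes, and its subunits RFX5 and RFXAP, named after their values were seen, were 2.99-fold and 2.37-fold lower with tetracycline in TR9_MeTA14. In TR15_MeTA5 they changed by log2 -0.11 and -0.31. The partner subunit RFXANK changed by 0.11 and -0.20. IRF7, a transcription factor of the interferon response, was the single gene of 19 tested that passed limma (17.8-fold and 7.39-fold, log2 3.52, SE 0.40, adjusted p = 0.0379). RELA, the NFκB subunit p65, had 2 probes that disagreed, with log2 changes of 2.49 and 1.59 on A_33_P3209433 and of 0.29 and -0.16 on A_23_P104689. The induced construct carries an NFκB activation domain, and whether either probe also reads its transcript was not tested.

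NLRC5, the class I transactivator, changed by 1.13 in TR9_MeTA14 and 0.47 in TR15_MeTA5 on its brighter probe (signals of 85.3, 235, 44.0 and 90.1). Its other probe was at least 3-fold lower in TR9_MeTA14, the opposite direction, so NLRC5 has no settled sign there. IRF1, which binds the ISRE of class I promoters, was 2.93-fold higher in TR15_MeTA5 (signals of 16.3 and 70.4) and changed by 0.18 in TR9_MeTA14 (62.3 and 88.5). The signal of 16.3 lies close to the lowest one well above background on that array (15.4), so this fold is uncertain. Untreated TR15_MeTA5 had 2.28-fold less IRF1 than untreated TR9_MeTA14, and treated TR15_MeTA5 1.14-fold more than treated TR9_MeTA14. The kinase JAK1 stood well above background only in TR9_MeTA14 +Tet, where it was at least 1.47-fold higher.

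**Figure D4:**
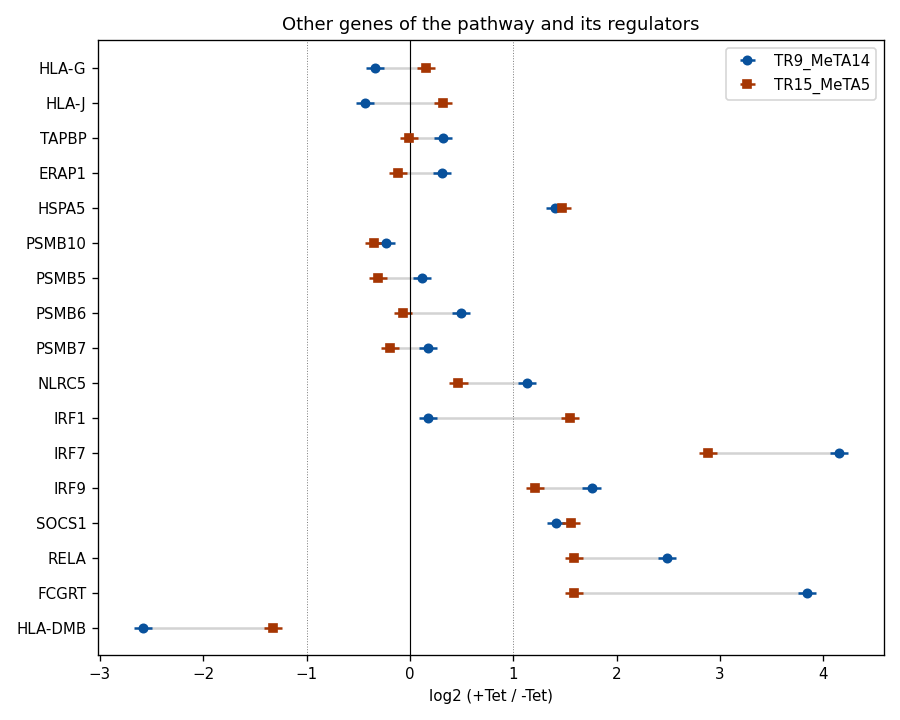
Log2 change with tetracycline of named genes beside the class I members in TR9_MeTA14 (circles) and TR15_MeTA5 (squares), by brightest probe, with bars of 1 technical SD and dotted lines at 2-fold. IRF7 stands farthest right in both lines (4.15 and 2.89), while PSMB5, PSMB6, PSMB7 and PSMB10 stay within 2-fold.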

How the data were processed

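RNA from 4 cultures was hybridised to 4 arrays on 1 slide. The authors deposited the intensity of each spot from Agilent Feature Extraction (10.7.3.1 in the file header, 9.5.1 in the submitters' notes), whose processed signal is background-subtracted and not normalized between arrays. The value table of the series held identical signals.

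From these intensity values, log2 signals of the spots of a probe were averaged without outlier spots, and each array's 75th percentile over probes was subtracted. Detection (well above background) followed the scanner software's own flag. Probes were named through RefSeq accessions (GRCh38.p14, 74.5% named), and the brightest probe stood for a gene. Signals below background gave lower bounds. limma 3.58.1 in R 4.3.3 fitted cell line and treatment with an intensity trend to probes detected on 2 or more arrays. With 1 residual degree of freedom, p-values rest on how far the tetracycline effect differed between the 2 lines, moderated over all probes. They hold no spread between replicate cultures, and part of that difference may be technical. Simulated data held 22808 probes, with 50 changed at each fold size, fewer in all than were called in the real data. There the treatment fit recovered 72% of 16-fold changes and 0% of 4-fold ones, with 6 false calls. Python 3.11.15 did the rest.

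The members and lists were chosen with earlier results of these data known. Every member probe is named. Of other lists (loading, proteasome, interferon, class I-like, class II and cell type markers) the genes named are mostly those called in both lines and a fixed set including HLA-G, NLRC5 and IRF1. A few more are marked in the text as named after their values were seen. HLA-J, RFXANK, KLK3, CD3E and PTPRC were also named outside these rules. Some genes of these lists are not reported here. The alternatives were other scalings, normexp (offset 50), filters, fold cut-offs and fits without the trend, line or treatment term. The number of arrays limits the precision.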

Additional observations from a re-analysis of the deposited data

How the results depend on the processing

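The count of member probes at least 2-fold lower in TR9_MeTA14, 2 as reported, was 1 with spike-in scaling, 3 with quantile normalization (HLA-F probe A_33_P3379967 added), 1 at 3-fold and 6 at 1.5-fold. The count 2-fold apart between the untreated lines, 0 as reported, was 6 with spike-in scaling and 2 with no filter. The count 2-fold higher in treated TR15_MeTA5 than in treated TR9_MeTA14, 3 as reported, was 1 with spike-in scaling and 1 with normexp, chosen after seeing the data. Over both lines PSMB9 turned from -0.14 to 0.10 with spike-in scaling, and the B2M difference between the lines from 0.80 to -0.11. The cause was not tested. The other 87 limma values of single members kept their direction and their side of the threshold. Of values in 1 line, 118 moved by less than the technical SD and 36 by more, 17 of these with spike-in scaling. No paired analysis was possible because replicate numbers pair nothing here: each condition has 1 array and all carry the same experiment number. The cell line term of the limma fit pairs treated and untreated arrays of a line, and without it 0 member probes passed as well. There was no replicate to leave out. PSMB8 and 1 TAP2 probe were limited by signal near background.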

Other observations

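Relatives of the class I genes were counted by brightest probe, where the shares of all genes at least 2-fold higher and lower were 16.8% and 15.1% in TR9_MeTA14 and 9.77% and 2.21% in TR15_MeTA5. Of 10 class I-like genes compared in TR9_MeTA14, 1 was at least 2-fold higher with tetracycline and 3 lower, and of 9 in TR15_MeTA5, 2 were higher and 0 lower. MICA and MICB, stress ligands of the natural killer cell receptor NKG2D, were 2.41-fold and 2.62-fold lower in TR9_MeTA14 and changed by log2 -0.37 and -0.32 in TR15_MeTA5. The other MICB probe, A_23_P387471, went the opposite way there, at least 1.8-fold higher. FCGRT, the heavy chain of the neonatal Fc receptor and a partner of B2M, was higher in both lines: its signals were 897 and 16145 in TR9_MeTA14 (14.3-fold) and 674 and 2989 in TR15_MeTA5 (3-fold), with a limma adjusted p of 0.142. Of 9 HLA class II genes compared in each line, 1 was higher and 2 lower in TR9_MeTA14, and 1 higher and 1 lower in TR15_MeTA5. HLA-DPB1, a class II beta chain, had signals of 52.9 and 1256 in TR15_MeTA5 (16-fold higher) and of 207 and 359 in TR9_MeTA14 (log2 0.46), and its limma adjusted p was 0.272. MICA, MICB and HLA-DPB1 were named after their values were seen. HLA-DMB, a chaperone of class II peptide loading, was lower in both, with signals of 2349.7 and 493 in TR9_MeTA14 (6-fold) and of 301 and 178 in TR15_MeTA5 (2.5-fold), and a limma adjusted p of 0.118. Of fibroblast markers, 3 of 4 were not well above background on any array, and of 3 endothelial markers 0 were called.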
